A study of Mus musculus with 185 samples.

Results

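The genes described here carry the insulin and insulin-like growth factor signal in brain tissue: the receptors Insr and Igf1r, the ligand Igf1, the docking proteins Irs1 and Irs2, the lipid kinase subunit Pik3r1, and the forkhead factors Foxo1, Foxo3, Foxo4 and Foxo6. They were chosen by name, as 10 of the 57010 Ensembl genes in the deposited count matrix, with earlier results of these data known. RNA-seq was performed on 5 brain regions from each of 37 male C57BL/6 J mice aged 8 weeks, an inbred strain with no genetic change. In the 16 h study, 6 mice stayed on chow, 6 were switched to a high-fat diet (HFD, D12331) and 6 were fasted, all pair-housed in 9 cages. In the 24 h study, 9 mice stayed on chow and 10 were fasted, all single-housed. Hypothalamus, hippocampus, superior colliculus and inferior colliculus were sampled in both studies, with prefrontal cortex as the fifth region at 16 h and zona incerta at 24 h.

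Insulin and IGF1 bind receptor tyrosine kinases, which phosphorylate docking proteins. These recruit PI3K, a lipid kinase, and thereby activate the kinase AKT. AKT phosphorylates most FoxO transcription factors and keeps them out of the nucleus. When the signal falls, FoxO proteins enter the nucleus and raise the transcription of genes for gluconeogenesis, atrophy, stress defence and cell cycle arrest, and also of Insr and Irs2. In the hypothalamus, insulin signalling and Foxo1 are known for their part in feeding control through Agrp and Pomc neurons.

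The matrix headings name the mouse and the diet of each library but not the brain region, so the unit was the sum of the 5 libraries of a mouse. CPM here means counts scaled to 1000000 counts of that sum. Since deeper libraries weigh more in it, a level is an average over regions with unequal weights. In such bulk tissue, fewer cells of a type and less RNA per cell cannot be told apart. Mouse sums held 57962237 to 161577364 counts, and the smallest count of any member in any mouse was 320, for Foxo6, so all 10 of the 10 members passed the filter on low counts in every fit. Of all libraries, 27 were low, with fewer than 1000000 counts or few detected genes. These were 1 chow and 3 fasted libraries at 16 h, and 11 chow and 12 fasted libraries at 24 h. They stayed in the sums, and results without them are given where a call changed. A low library could be deep, such as 1 of chow mouse 144.2 with 21281992 counts. Most members had lower CPM in the low libraries of the 24 h study, as given below, so sums that hold them can be lower. The study's authors discarded a block of 24 h libraries without detectable RNA, sequenced on its own flowcell, and flagged others by alignment or as outliers. Headings do not name these libraries, so they also stayed in the sums. Fasted mouse 144.5 stood apart, because 2 of its libraries carried high levels of Drd1, a dopamine receptor gene of striatal neurons, as described with Foxo1. The superior colliculus tubes of mice 142.3 and 145.4 were exchanged, which the study's methods say was corrected in its metadata. Mouse 142.3 had the highest Cdkn1a and Sgk1 of the chow mice, as given below. Mouse 145.4 had the lowest Sgk1 of the fasted mice, while its Cdkn1a was not the lowest. Whether the summed counts of these mice follow the correction was not tested, and results without these mice are also given.

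The members lay at 10 places in the GRCm39 assembly (GENCODE vM39 annotation). Insr spanned chr8:3172061-3329647 on the minus strand and Igf1r chr7:67601518-67883416 on the plus strand. Igf1 spanned chr10:87693642-87772904 on the plus strand. Irs1 lay at chr1:82210822-82269338 and Irs2 at chr8:11034681-11059499, both on the minus strand, and Pik3r1 at chr13:101817071-101904725, also on the minus strand. Of the forkhead genes, Foxo1 lay at chr3:52175757-52260642 and Foxo4 at chrX:100298073-100304479 on the plus strand, and Foxo3 at chr10:42057837-42154007 and Foxo6 at chr4:120124276-120147792 on the minus strand. Counts were taken over whole genes, exons of untranslated regions included. Exons of 6 of the 10 members overlapped exons of a gene on the other strand, by 0.922% of the exon bases of Insr (Gm64081) up to 7.27% of those of Foxo1 (Gm20402). The strand of the counts is not given in the sources used here, so reads in those stretches cannot be told apart.

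Since Irs2 was a called member and Irs1 was not, their promoters are shown. RefSeq (GRCm38.p6) gave promoter sequence for 7 of the 10 members, with none listed for Insr, Foxo4 and Foxo6. The 250 bases before each start were searched on both strands for CAAAACA, the insulin response sequence that FoxO proteins can bind. It was found in both promoters and in 5.56% of all 32851 promoters. The letters are printed along the strand of the gene, and the capitals mark CAAAACA on the opposite strand, read here as TGTTTTG.
Irs2, chr8:11008930-11009179, minus strand: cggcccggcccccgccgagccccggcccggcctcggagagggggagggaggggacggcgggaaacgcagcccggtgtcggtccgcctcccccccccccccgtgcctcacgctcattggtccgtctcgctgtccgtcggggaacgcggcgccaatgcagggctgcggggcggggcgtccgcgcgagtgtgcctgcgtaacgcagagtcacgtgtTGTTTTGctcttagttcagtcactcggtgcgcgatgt
Irs1, chr1:82291440-82291689, minus strand: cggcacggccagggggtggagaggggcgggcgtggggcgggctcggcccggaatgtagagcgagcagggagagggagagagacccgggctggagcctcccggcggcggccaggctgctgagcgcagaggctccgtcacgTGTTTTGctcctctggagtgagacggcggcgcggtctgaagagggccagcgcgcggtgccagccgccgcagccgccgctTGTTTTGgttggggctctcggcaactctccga
Irs2 held 1 copy, from base -37 to -31 relative to the start. Irs1 held 2 copies, from -111 to -105 and from -32 to -26. CACGTG, an E-box, also stood in both, at -44 to -39 in Irs2 and at -115 to -110 in Irs1, where it shared bases with a TGTTTTG, and 6.02% of all promoters held it. The FoxO consensus GTAAACA (3.17% of all promoters), the cyclic AMP response element TGACGTCA (1.55%) and the glucocorticoid element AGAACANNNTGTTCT (0.00913%) were in none of the members' promoters. A match describes these letters in this window and shows no binding.

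The question of the 24 h comparison was how fasting changed these genes. After 24 h of fasting, 6 of the 10 members were called higher (adjusted p under 0.05, edgeR) and 0 lower: both receptors, Irs2, Pik3r1, Foxo1 and Foxo3. Over all 29011 genes tested, 5.78% were called higher, 5.62% lower and 11.4% were called in either direction. Differences were modest, with a median log2 fold change of 0.20 over the 10 members beside -0.00 over all genes, and none of the 10 had ranges over mice that did not overlap, which 1.30% of all genes had. Igf1, Irs1, Foxo4 and Foxo6 were not called. Without chow mouse 143.2, 145.1 or 145.2, the count was 3 (Insr, Irs2 and Pik3r1). The plot of CPM per mouse at 24 h shows all 19 mice for each gene.

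**Figure D1:**
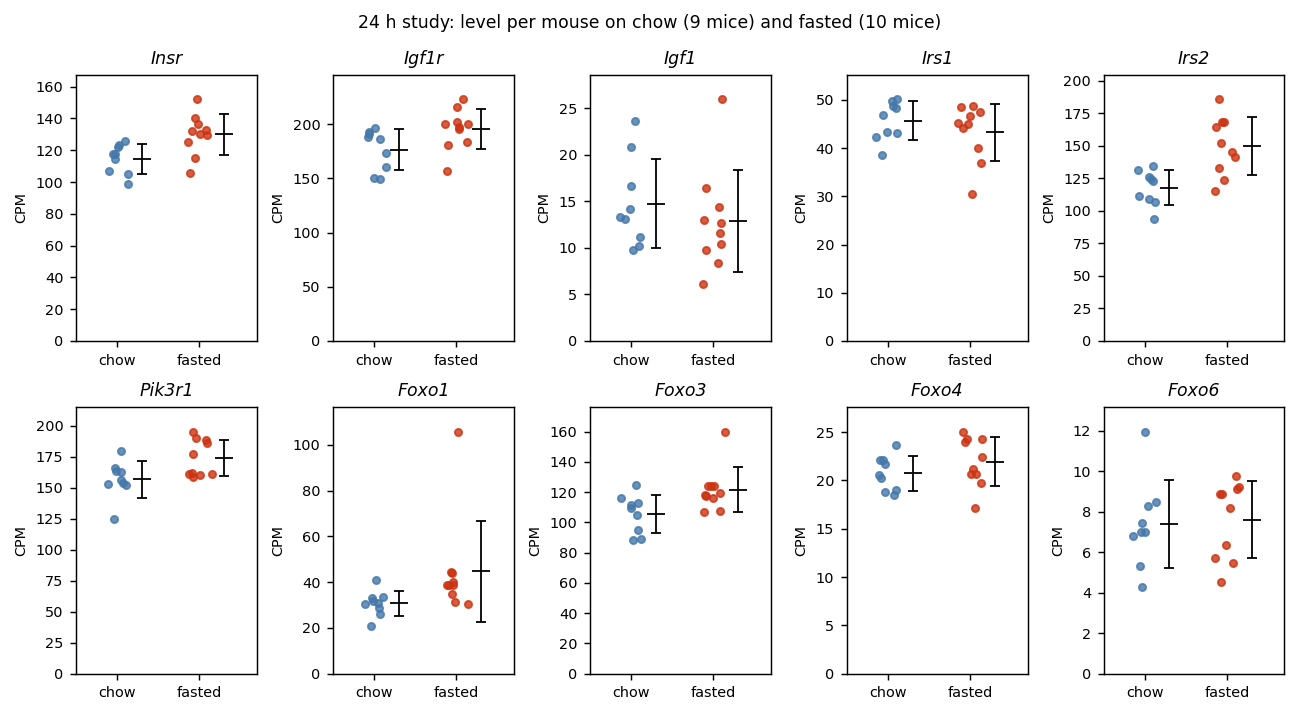
Level of each of the 10 genes in CPM (vertical axis, from 0, 1 scale per panel) in each mouse of the 24 h study, with 9 mice on chow and 10 fasted; each point is a mouse, and the black bar is the group mean with its SD. Fasted mice lay higher on average for Insr, Igf1r, Irs2, Pik3r1, Foxo1 and Foxo3, with overlap in every panel, and 1 fasted mouse stands far above the others for Foxo1 at 105.8 CPM.

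Insr, the insulin receptor, had levels of 98.7 to 125.98 CPM on chow (median 117.6) and of 105.5 to 152.4 CPM in fasted mice (median 131.3). Of the 10 fasted mice, 7 lay above every chow mouse. The means were 114.7 ± 9.34 CPM (SD, n = 9) and 130 ± 13.0 CPM (SD, n = 10), and the log2 fold change was 0.23 ± 0.04 (SE), an increase of 17.5% (edgeR adjusted p = 0.000592). It was the member with the smallest adjusted p, and it was called whichever single mouse was left out. Igf1r, the receptor for IGF1, reached 149.1 to 197 CPM on chow (median 187) and 156.4 to 223 CPM in fasted mice (median 199). Here 6 of 10 fasted mice exceeded all chow mice, but the lowest fasted mouse lay within the chow range. Its log2 fold change was 0.20 ± 0.06 (edgeR adjusted p = 0.0450). This was the call closest to the threshold, and it was lost without any 1 of 15 of the 19 mice.

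Igf1, the growth factor gene itself, showed no called change. Its levels ran from 9.75 to 23.7 CPM on chow (median 13.4) and from 6.16 to 26.0 CPM in fasted mice (median 12.1). The log2 fold change was -0.14 ± 0.23 (edgeR adjusted p = 0.774), and the fasted group held both the lowest and the highest mouse of the study.

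Irs2 and Irs1, docking proteins with the promoter letters shown above, differed in their values. Irs2 ran from 93.5 to 134.3 CPM on chow (median 122.9) and from 115.1 to 186.2 CPM in fasted mice (median 148.4), with 7 of 10 fasted mice above every chow mouse. Its means were 117.7 ± 13.4 CPM (SD, n = 9) and 150 ± 22.4 CPM (SD, n = 10). The log2 fold change was 0.41 ± 0.10, an increase of 32.5% (edgeR adjusted p = 0.00847). Irs2 was thus called higher on average, while the ranges of the 2 diets overlapped. This call was kept under all 12 alternatives run and without any single mouse. Irs1 ran from 38.6 to 50.3 CPM on chow (median 46.9) and from 30.4 to 48.7 CPM in fasted mice (median 45.1). Its ranges overlapped almost fully, with a log2 fold change of -0.02 ± 0.07 (edgeR adjusted p = 0.896). Whether the changes of Irs1 and Irs2 differed from each other was not tested.

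Pik3r1, which encodes the regulatory subunit that holds PI3K on docking proteins, ran from 125 to 180 CPM on chow (median 156.4) and from 159.1 to 195 CPM in fasted mice (median 170). Only 4 of 10 fasted mice lay above all chow mice, while the lowest fasted mouse lay above the chow median. Means of 156.9 ± 14.7 CPM (SD, n = 9) and 174.2 ± 14.8 CPM (SD, n = 10) gave a log2 fold change of 0.21 ± 0.05 (edgeR adjusted p = 0.0179). With Insr and Irs2, it was called without any single mouse. When all libraries of a mouse had equal weight, low ones included, Insr, Igf1r and Pik3r1 were not called (limma adjusted p = 0.0613, 0.262 and 0.110).

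Among the forkhead factors, Foxo1 had the largest log2 fold change of the 10 members and also the widest spread. It ran from 21.0 to 40.8 CPM on chow (median 31.0) and from 30.4 to 105.8 CPM in fasted mice (median 38.8), and 3 of 10 fasted mice lay above every chow mouse. The means were 30.7 ± 5.46 CPM (SD, n = 9) and 44.7 ± 22.0 CPM (SD, n = 10). The log2 fold change was 0.59 ± 0.19 (edgeR adjusted p = 0.0432). The highest value belonged to mouse 144.5, and the next fasted mouse had 44.6 CPM. Without mouse 144.5, the log2 fold change was 0.36 (edgeR adjusted p = 0.0155), a smaller difference that was still called, and Irs2 then had the larger value at 0.45. Without the low libraries the call was lost (edgeR adjusted p = 0.0579), as it was without mice 142.3 and 145.4, and without any 1 of 11 of the 19 mice.

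In mouse 144.5, Foxo1 was high in only 2 of its 5 libraries, with 196 and 80.2 CPM, beside 30.4, 29.8 and 28.1 CPM in the other 3. The same 2 libraries held Drd1 at 357 and 233 CPM. No other library that was not low exceeded 27.0 CPM of Drd1. Summed over the mouse, Drd1 stood at 211 CPM in mouse 144.5, at most 13.6 CPM in the other fasted mice and at most 8.75 CPM in the chow mice of the 24 h study. Adora2a, a second gene of striatal neurons, stood at 164.8 CPM in this mouse and at most 10.4 CPM in the others. Drd1 and Adora2a were chosen after their values were seen. The region of these libraries is not known, and the part of this tissue in the Foxo1 value was not tested beyond leaving the mouse out. The plot of Foxo1 against Drd1 shows the libraries singly.

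**Figure D2:**
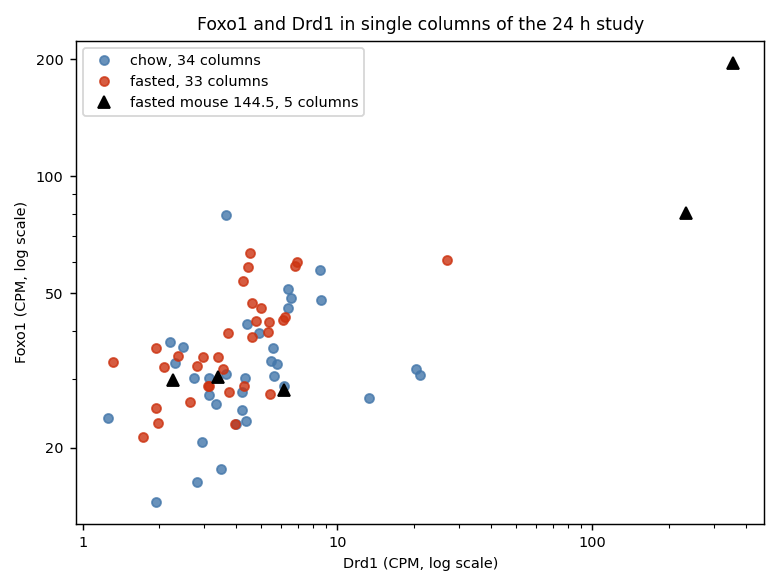
Foxo1 (vertical axis) against Drd1 (horizontal axis), both in CPM of the library on log scales, in the 72 libraries of the 24 h study that were not low; points are single libraries on chow or fasted, and triangles are the 5 libraries of fasted mouse 144.5. The pair of triangles at the upper right, with Drd1 at 357 and 233 CPM, lies apart from all other libraries, while the other 3 triangles lie among them.

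Foxo3 ran from 88.1 to 125 CPM on chow (median 109) and from 107.01 to 160 CPM in fasted mice (median 118.7). A single fasted mouse, again mouse 144.5, lay above every chow mouse, so the groups overlapped widely. The means of 105.7 ± 12.7 CPM (SD, n = 9) and 121.7 ± 14.8 CPM (SD, n = 10) gave a log2 fold change of 0.26 ± 0.08 (edgeR adjusted p = 0.0331), and without mouse 144.5 it was 0.21 (edgeR adjusted p = 0.0419). The call was lost without any 1 of 5 other mice. Foxo4, an X-linked member, had 18.5 to 23.6 CPM on chow (median 20.5) and 17.1 to 25.1 CPM in fasted mice (median 21.8), with a log2 fold change of 0.14 ± 0.07 (edgeR adjusted p = 0.277). Foxo6, a brain-enriched member that shuttles little out of the nucleus, had 4.28 to 12.0 CPM on chow (median 7.03) and 4.54 to 9.75 CPM in fasted mice (median 8.54). Its log2 fold change of 0.09 ± 0.16 was within the spread between mice (edgeR adjusted p = 0.786). Foxo4 and Foxo6 were therefore not distinguishable between diets at 24 h.

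Marker genes of some cell types moved with fasting in the same 24 h comparison. Of 6 microglia markers, 4 were called lower (Cx3cr1, P2ry12, Tmem119 and Aif1), and their summed level was 116.96 to 162.5 CPM on chow and 93.8 to 151.2 CPM in fasted mice. Of 5 endothelial markers, 3 were called lower, with sums of 142 to 232 CPM on chow and 101.8 to 164.8 CPM in fasted mice. Markers of mural cells (2 of 4) and meninges (3 of 5) were also called lower. Among 5 astrocyte markers, 2 were called lower. Mobp was called higher among 5 oligodendrocyte markers and Pdgfra among 4 markers of oligodendrocyte progenitors, while 0 of 5 neuronal markers were called, with neuronal sums of 2157 to 3163 CPM on chow and 2263 to 3206 CPM in fasted mice. All 10 of 10 genes on a list of glucocorticoid-responsive genes, chosen with earlier results of these data known, were called higher. Their sums were 401 to 510 CPM on chow and 629 to 1065 CPM in fasted mice, which did not overlap. Of the region lists, Agrp alone was called, among 8 hypothalamic markers, and it was higher. The summed hypothalamic markers ran from 10.2 to 173.6 CPM on chow and from 18.8 to 261 CPM in fasted mice, a wide spread within both diets. The pituitary gene Gh reached 2.15 to 895 CPM at 24 h and at most 5.58 CPM at 16 h. The part of these cell types, of regions and of glucocorticoids, in the values of the 10 members was not tested.

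At 16 h, 0 of the 10 members were called in any of the comparisons of chow, HFD and fasting, which asked for effects of a shorter exposure. Few genes were called at all, with 0% of 29746 for HFD against chow, 0% for fasting against chow and 0.219% for fasting against HFD. At an unadjusted p under 0.05, edgeR gave 1 member for HFD against chow, 0 for fasting against chow and 2 for fasting against HFD, beside 9.80%, 7.62% and 11.4% of all genes in the same order, and DESeq2 also called 0 members in each. The comparisons share mice, since the chow mice served both the HFD and the fasted group. The plot of CPM per mouse at 16 h shows the 18 mice.

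**Figure D3:**
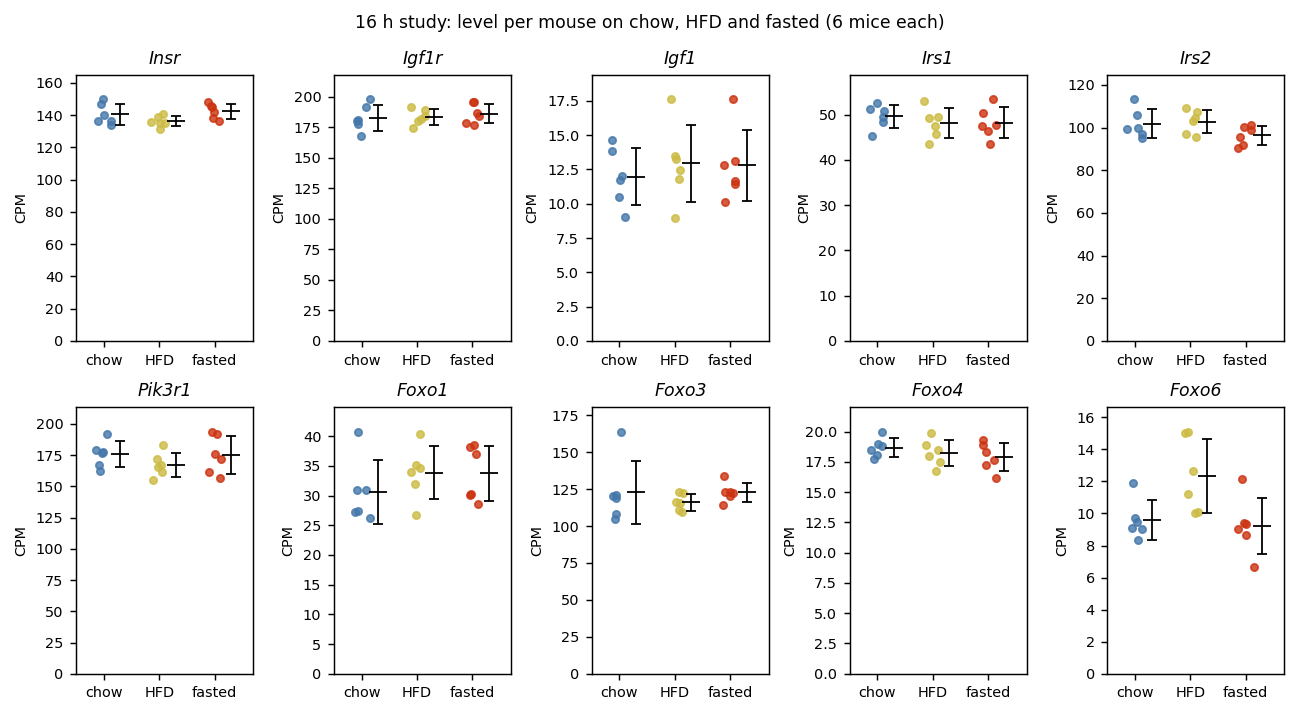
Level of each of the 10 genes in CPM (vertical axis, from 0, 1 scale per panel) in each mouse of the 16 h study, with 6 mice each on chow, on HFD and fasted; each point is a mouse, and the black bar is the group mean with its SD. The groups overlapped in every panel, and the clearest shift was Foxo6, with 10.0 to 15.1 CPM on HFD and 8.34 to 11.9 CPM on chow.

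For the genes called at 24 h, the 16 h means lay close together. Insr had 140.6 CPM on chow, 136.1 CPM on HFD and 142 CPM in fasted mice, and Igf1r had 182.8, 183.6 and 186.2 CPM (n = 6 each). Irs2 had 95.2 to 113.5 CPM on chow (median 99.4), 95.7 to 109 CPM on HFD (median 103.6) and 90.3 to 101.4 CPM in fasted mice (median 97.1). The fasted mice were thus at the low end for Irs2, with a log2 fold change of -0.11 ± 0.04 against HFD that did not pass adjustment (p = 0.0252, edgeR adjusted p = 0.349) and of -0.06 ± 0.04 against chow (edgeR adjusted p = 0.772). Pik3r1 had means of 175.8, 167.2 and 175.3 CPM on chow, on HFD and in fasted mice, and Foxo1 had 30.6, 33.8 and 33.8 CPM. Foxo3 had 122.9, 116.2 and 122.7 CPM in the same order, with 1 chow mouse, mouse 6, at 163.9 CPM. Log2 fold changes of fasting against chow ran from -0.06 to 0.16 over the 10 members, with SE of 0.03 to 0.15 and no adjusted p under 0.764 (edgeR).

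Foxo6 gave the largest value of the 10 members at 16 h. Its levels were 8.34 to 11.9 CPM on chow (median 9.27), 10.0 to 15.1 CPM on HFD (median 11.9) and 6.67 to 12.2 CPM in fasted mice (median 9.19). Of 6 HFD mice, 3 lay above all chow mice, and 5 of 6 fasted mice lay below all HFD mice. The log2 fold change was 0.40 ± 0.14 for HFD against chow (p = 0.00984, edgeR adjusted p = 0.503) and -0.43 ± 0.14 for fasting against HFD (p = 0.00597, edgeR adjusted p = 0.204), so neither passed adjustment over all genes. The value for HFD against chow was 0.16 with equal weight for all libraries (limma) and 0.18 with 1 surrogate variable. Summed markers of colliculi and thalamus were 95.04 to 192 CPM on chow and 49.6 to 174.5 CPM on HFD, and 0 of these 5 markers were called. Igf1 (12.0, 12.9 and 12.8 CPM), Irs1 (49.6, 48.1 and 48.2 CPM) and Foxo4 (18.7, 18.2 and 17.9 CPM on chow, on HFD and fasted) differed by less than the spread between mice.

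A direct test asked whether the fasting effect at 24 h differed from that at 16 h, in 1 fit of all 37 mice. It called 2 of the 10 members, Insr and Irs2, where 1.70% of 30849 genes were called. For Insr the fasting effect was 0.04 ± 0.03 at 16 h and 0.23 ± 0.04 at 24 h (log2 fold changes), and the difference was 0.20 ± 0.05 (edgeR adjusted p = 0.0151). For Irs2 it was -0.06 ± 0.04 at 16 h and 0.41 ± 0.10 at 24 h, and the difference was 0.47 ± 0.12 (edgeR adjusted p = 0.0351). Without the low libraries, Irs2 was no longer called (edgeR adjusted p = 0.0576). With equal weight for all libraries neither was called, with differences of 0.58 for Insr and 0.84 for Irs2 (limma adjusted p = 0.208 and 0.0897). These larger values are not a stronger effect of the 2 genes alone, since the median of all genes was then 0.30, beside 0.01 in the main fit. The other called members of the 24 h study did not pass this test, with differences of 0.15 for Igf1r (edgeR adjusted p = 0.509), 0.19 for Pik3r1 (edgeR adjusted p = 0.308), 0.43 for Foxo1 (edgeR adjusted p = 0.582) and 0.24 for Foxo3 (edgeR adjusted p = 0.441). Duration, single housing, the clock time of the start, the sequencing run with its read length, the choice of hemisphere and 1 brain region changed together between the studies. So did the number of low libraries, 4 at 16 h and 23 at 24 h, and the mitochondrial share of counts. That share was 3.78% to 4.98% over mice at 16 h and 8.57% to 16.7% at 24 h. These differences cannot be told apart. The plot of fold changes sets both fasting comparisons side by side.

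**Figure D4:**
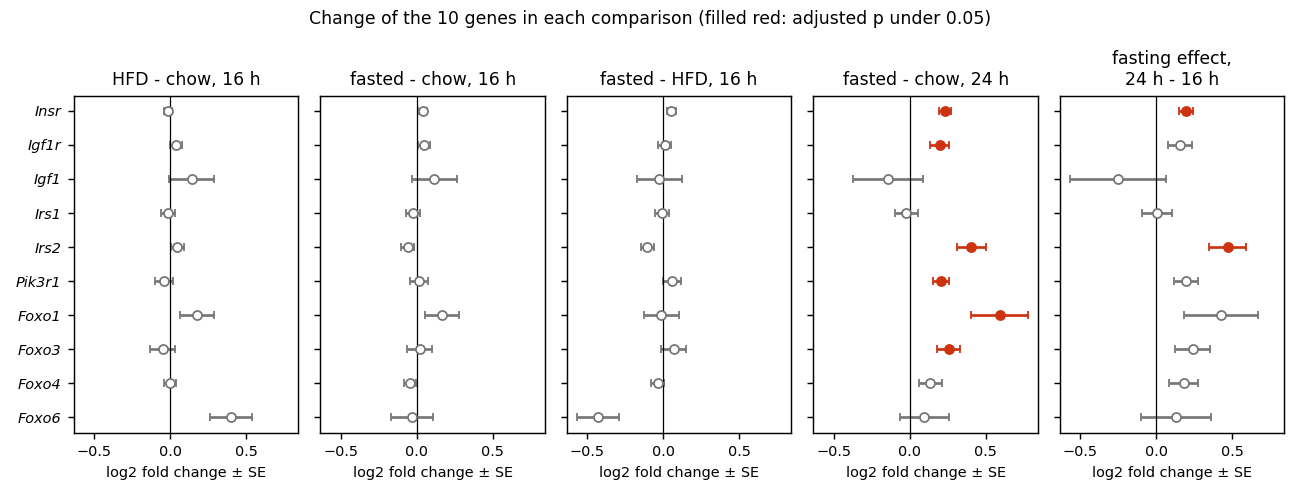
Log2 fold change with its SE (horizontal axis) of each of the 10 genes, with panels for the 16 h comparisons (HFD against chow, fasting against chow, fasting against HFD), for fasting against chow at 24 h and for the difference of the fasting effects; red filled points had an edgeR adjusted p under 0.05. The 16 h panels hold none, the 24 h panel holds Insr, Igf1r, Irs2, Pik3r1, Foxo1 and Foxo3 between 0.20 and 0.59, and the last panel holds Insr and Irs2.

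Levels between genes were compared per kilobase of exon. In the 16 h study the order by CPM per kilobase, over 18 mice, was Pik3r1 (16.1), Irs2 (13.6), Foxo3 (13.1), Insr (10.1), Igf1r (9.32), Irs1 (5.20), Foxo4 (5.16), Foxo1 (3.53), Foxo6 (1.76) and Igf1 (1.23). The ranges over mice of neighbours in this order did not overlap between Foxo3 and Insr, between Igf1r and Irs1, between Foxo4 and Foxo1, and between Foxo1 and Foxo6, and all other neighbours overlapped. In the 24 h study, over 19 mice, Irs2 came first with 18.3 CPM per kilobase and Pik3r1 followed with 15.5. The lowest were again Igf1 (1.35) and Foxo6 (1.27). There, only Insr (8.91) and Foxo4 (6.02) were neighbours whose ranges did not overlap. Among the forkhead factors Foxo3 thus had the highest level per length and Foxo6 the lowest, in both studies.

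The members differed in how evenly they were spread over the libraries of a mouse. The ratio of the highest to the lowest library of a mouse, low libraries left out, had a median of 1.23 at 16 h and 1.17 at 24 h for Insr, the lowest of the 10 members in both studies. Its single libraries still ran from 112.4 to 188 CPM at 16 h and from 76.8 to 163.8 CPM at 24 h. For Igf1r these medians were 1.38 and 1.35. Foxo6 was the least even, with medians of 3.67 and 4.27. Next came Foxo1 (2.58) and then Igf1 (2.42) at 16 h, and Igf1 (2.60) and then Foxo1 (1.87) at 24 h. Irs1 (1.59 and 1.29), Irs2 (1.48 and 1.56), Pik3r1 (1.71 and 1.47), Foxo3 (1.68 and 1.39) and Foxo4 (1.47 and 1.35) lay between. A mouse sum of Foxo6 or Foxo1 therefore depends more on which of its libraries was deepest than a sum of Insr does.

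Across single libraries, Foxo6 ran opposite to markers of colliculi and thalamus, with a Spearman correlation of -0.76 over 86 libraries at 16 h and -0.79 over 72 libraries at 24 h. Irs1 ran with these markers, at 0.78 and 0.69. Other lists gave values of similar size at 16 h. Foxo6 ran with microglia markers at 0.81 (0.43 at 24 h) and opposite to oligodendrocyte markers at -0.67 (-0.49 at 24 h). For Irs1 the microglia list gave -0.74 (-0.23 at 24 h) and the oligodendrocyte list 0.66 (0.18 at 24 h). Foxo1 correlated with hippocampal markers at 0.55 and 0.25, and with cortical markers at -0.67 and -0.55. These are descriptions, since libraries share mice, runs and regions. In the 23 low libraries of the 24 h study, Insr had a median of 45.9 CPM beside 130 CPM in the other 72, Igf1r 53.4 beside 196 CPM, Irs2 51.3 beside 130 CPM and Foxo3 51.3 beside 121.3 CPM. The median was lower in the low libraries for 9 of the 10 members, while Foxo4 had 24.4 beside 19.8 CPM.

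The genes most like Foxo1 over the 19 mice of the 24 h study, by Pearson correlation of log2 CPM, were Ctdspl (r = 0.97), Slc24a4 (0.96), Plcb1 (0.95), Mchr1 (0.94) and Lingo3 (0.94). All 5 had their highest level in mouse 144.5, for example Slc24a4 with 120.7 CPM there and at most 50.0 CPM in any other mouse. Without that mouse, r was 0.93, 0.91, 0.87, 0.83 and 0.89 in the same order. These mice share the libraries and regions that were summed.

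The rest of the pathway was described with a list of 57 other genes, chosen with earlier results of these data known. At 24 h, 54 of them were tested. Of these, 9 were called higher, 3 lower and 42 were not called, which is 22.2% of the tested genes beside 11.4% of all genes. With equal weight per library and the low libraries left out, 6 were called higher and 6 lower (limma). The median log2 fold change was 0.00. Ins1, Ins2 and Igfbp1 were under the filter on low counts. At 16 h, 0 genes of the list were called in any comparison.

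Of 8 tested ligands and binding proteins, 1 was called higher and 1 lower. Igfbp5, a binding protein for IGFs, ran from 197 to 232 CPM on chow and from 115.2 to 176.8 CPM in fasted mice, so that every fasted mouse lay below every chow mouse. Its log2 fold change was -0.54 ± 0.07 (edgeR adjusted p = 2.86e-05). Igfbp3 had a mean of 7.59 CPM on chow and 9.94 CPM in fasted mice, a log2 fold change of 0.44 ± 0.13 (edgeR adjusted p = 0.0279). Neither of the other receptors, Igf2r and Insrr, was called. Among 10 adaptors 1 was called, Sh2b2, which binds the activated insulin receptor. Sh2b2 had a mean of 8.57 CPM on chow and 16.8 CPM in fasted mice, with a log2 fold change of 1.03 ± 0.15 (edgeR adjusted p = 6.28e-05). Of 5 PI3K subunits, only Pik3r2 was called, at 0.23 ± 0.07 (edgeR adjusted p = 0.0357), and this call was lost under 5 of 12 alternatives and without any 1 of 7 mice.

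The kinases below PI3K included the largest changes of the list, all in the SGK family, relatives of AKT that also phosphorylate FoxO proteins. Sgk1 ran from 33.1 to 71.03 CPM on chow and from 146.2 to 285 CPM in fasted mice. The 71.03 CPM belonged to mouse 142.3 and the 146.2 CPM to mouse 145.4, both of the exchanged tubes. Sgk3 ran from 12.6 to 18.9 CPM on chow and from 21.3 to 88.9 CPM in fasted mice, so that neither gene had overlapping ranges. The log2 fold changes were 2.36 ± 0.15 for Sgk1 (edgeR adjusted p = 5.17e-09) and 1.90 ± 0.22 for Sgk3 (edgeR adjusted p = 8.11e-06). Sgk2 was lower, with means of 3.00 and 1.67 CPM and a log2 fold change of -0.80 ± 0.15 (edgeR adjusted p = 0.000941). The other 11 kinases and partners tested, among them Mtor, Gsk3a and Gsk3b, were not called. Sgk1 is also known as a target of glucocorticoids, whose responsive genes were called higher here as given above, and their part in its value was not tested.

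Of 15 genes known to restrain the pathway, 4 were called higher and 1 lower. Trib1, a pseudokinase of a family that can inhibit AKT, ran from 9.97 to 13.3 CPM on chow and from 14.2 to 22.5 CPM in fasted mice. These ranges did not overlap, and the log2 fold change was 0.74 ± 0.10 (edgeR adjusted p = 2.86e-05). Pik3ip1, an inhibitor of PI3K, was higher by 0.29 ± 0.06 (edgeR adjusted p = 0.00155). Inpp5d, a lipid phosphatase of microglia and blood cells, was higher by 0.29 ± 0.08 (edgeR adjusted p = 0.0307), and Ptpn1, the phosphatase that acts on the insulin receptor, by 0.25 ± 0.08 (edgeR adjusted p = 0.0359). These calls were lost without any 1 of 8 mice for Inpp5d and 9 mice for Ptpn1, and under 2 and 4 of 12 alternatives. Socs1 was lower by a log2 fold change of -0.48 ± 0.13 (edgeR adjusted p = 0.0174). The other 10 were not called.

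A list of 24 genes known as FoxO targets was all tested at 24 h, with 7 called higher, 2 lower and 15 not called (37.5% called, beside 11.4% of all genes). The list was chosen with earlier results of these data known, so this share is a description and no test of an excess. The median log2 fold change of the list was 0.18, with 19 of 24 values above 0, beside 49.0% of all genes. The list was not split by whether FoxO proteins raise or lower each gene, so these signs do not measure 1 direction of FoxO action. Cdkn1a, an inhibitor of the cell cycle, ran from 3.34 to 20.2 CPM on chow and from 36.8 to 128.7 CPM in fasted mice, with a log2 fold change of 3.71 ± 0.35 (edgeR adjusted p = 7.67e-07). The 20.2 CPM belonged to mouse 142.3, of the exchanged tubes, and the next chow mouse had 6.02 CPM. Pdk4, a kinase that blocks pyruvate dehydrogenase in fasting, ran from 6.13 to 9.67 CPM on chow and from 13.5 to 33.6 CPM in fasted mice, with a log2 fold change of 1.56 ± 0.17 (edgeR adjusted p = 2.48e-06). Txnip, an inhibitor of glucose uptake and thioredoxin, ran from 9.13 to 16.2 CPM and from 20.7 to 33.8 CPM, with a log2 fold change of 0.98 ± 0.11 (edgeR adjusted p = 5.57e-06). The ranges of these 3 genes did not overlap. Bcl6, a transcriptional repressor, was higher by 0.56 ± 0.11 (edgeR adjusted p = 0.00154). Tnfsf10, a death ligand, was lower, with means of 4.38 and 1.84 CPM and a log2 fold change of -1.20 ± 0.16 (edgeR adjusted p = 3.10e-05). At 16 h, 0 of these 24 were called in any comparison. Several of these genes, Pdk4 among them, are also targets of glucocorticoids, and the part of FoxO proteins in their values was not tested. The plot of the pathway and target lists gives every tested gene.

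**Figure D5:**
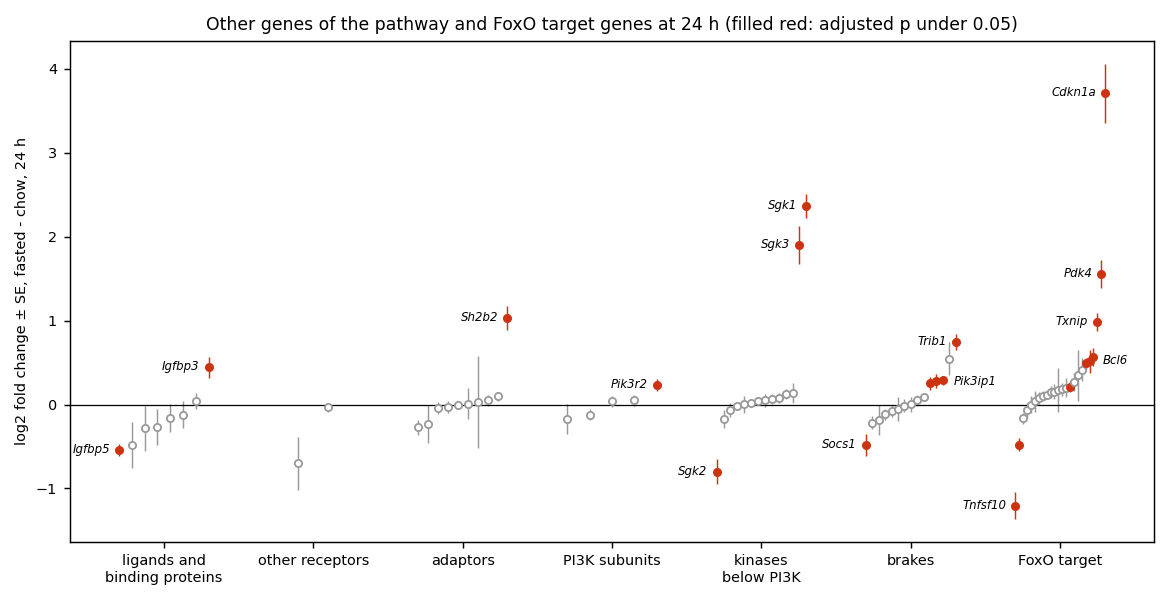
Log2 fold change with its SE (vertical axis) between fasted and chow mice at 24 h for the 54 tested genes of the pathway list, grouped by role, and the 24 FoxO target genes, with filled red points for an edgeR adjusted p under 0.05; 15 of the filled points carry names. Sgk1, Sgk3 and Cdkn1a stand highest, at 2.36, 1.90 and 3.71, while most open points lie near 0.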

How the data were processed

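RNA was extracted from 5 brain regions of each mouse, depleted of ribosomal RNA and sequenced. Per the labels and the methods of the study, the authors mapped reads to GRCm39 with STAR 2.7.3a and deposited raw counts per Ensembl gene, with no normalization or filter. Neither the strand setting nor the annotation release is given in the sources used here. Each of 37 headings stood on 5 columns of counts and named a mouse and its diet but not a region. Counts were therefore summed within each mouse, low libraries included, and the mouse was the replicate. Mice of the 16 h study shared cages, so that they may not be fully independent. A symbol was found for 56310 of 57010 genes.

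Differences between diets were tested over all genes by the quasi-likelihood method of edgeR 4.0.16 (R 4.3.3) after filterByExpr and TMM scaling, with Benjamini-Hochberg adjustment and a call at an adjusted p under 0.05. The 18 mice of the 16 h study shared 1 fit, the 19 mice of the 24 h study another, and all 37 mice a further one for the difference of fasting effects. Levels are CPM of raw sums, while fold changes carry TMM factors. SE was derived from the fold change and its test statistic. Libraries were called low under 1000000 counts or under 16000 genes expected in a draw of 500000 counts. Mouse sums of 57962237 to 161577364 counts limit genes of low expression most. On simulated counts for fasting against chow at 24 h, edgeR recovered 94 of 100 genes changed by 1 on the log2 scale and 100 of 100 changed by 2, with 7 false calls among 28746 genes, and at 16 h it recovered 96 and 100 with 6 false calls among 28901. The changed genes had mean counts over 100. Changes as small as those of the members, at most 0.59 at 24 h, were not simulated. The recovery therefore does not tell how often such changes are found.

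Alternatives used DESeq2 1.42.0, limma 3.58.1 with equal weight per library, 1 surrogate variable from sva 3.50.0, other size factors, filters, thresholds, covariates and each mouse left out. The members and all gene lists were chosen with earlier results of these data known. Named genes were the 10 members, of the lists up to 5 called genes per role with the largest fold changes, and the 5 genes most like the called member with the largest fold change. Promoters came from RefSeq (GRCm38.p6) and were not joined with GRCm39 coordinates. Analyses by brain region were not run.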

Additional observations from a re-analysis of the deposited data

Results flagged for a closer look

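The 10 members in 5 groups of 6 to 10 mice gave 50 sets of values, each tested for a mouse far from the others, and 6 held one, where chance gives about 1 in 20 sets. In the fasted mice of the 24 h study, mouse 144.5 had Foxo1 at 105.8 CPM with the nearest mouse at 44.6 CPM, and Foxo3 at 159.97 CPM with the nearest at 123.96 CPM. Mouse 145.5 had Igf1 at 26.0 CPM, with the nearest at 16.5 CPM. On chow at 24 h, mouse 144.2 had the lowest Pik3r1 at 125.1 CPM, with the nearest at 152.2 CPM. In this mouse 2 libraries were low, with Pik3r1 at 60.6 and 107.7 CPM, beside 122.8 to 180.3 CPM in the others. On chow at 16 h, mouse 5 had Foxo1 at 40.8 CPM, with the nearest at 31.0 CPM, and mouse 6 had Foxo3 at 163.9 CPM, with the nearest at 121.1 CPM. The deepest library of mouse 5 had Foxo1 at 54.8 CPM, and 1 library of mouse 6 had Foxo3 at 312 CPM. The part of single libraries in these values was not tested.

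The fasting effect differed between the 24 h and 16 h studies, by a test of the difference itself, for Insr (difference of log2 fold changes 0.20, edgeR adjusted p = 0.0151) and for Irs2 (0.47, edgeR adjusted p = 0.0351). The studies also differ in housing, clock time of the start, sequencing run, read length, choice of hemisphere and 1 region, which cannot be told apart from duration. Nor can the number of low libraries and the mitochondrial share of counts.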

How the results depend on the processing

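The count of 6 members called at 24 h was 3 when all libraries of a mouse, low ones included, had equal weight in limma, which lost Insr (adjusted p = 0.0613), Pik3r1 (0.110) and Igf1r (0.262) and moved the median of all genes by 0.07. Without the low libraries this weighting, added after seeing the data, gave 6, and summing without them gave 5, losing Foxo1. Without mice 142.3 and 145.4, or also without 145.5 (added after seeing the data), 4 were called, and Igf1r and Foxo1 were lost. With each mouse left out in turn, the count ran from 3 to 6, and it was 3 without chow mouse 143.2, 145.1 or 145.2. Igf1r was then lost in 15 of 19 cases, Foxo1 in 11 and Foxo3 in 5. The difference between studies was called for 2 members, for 1 without the low libraries (Insr), and for 0 with equal weight of all libraries. The value of Foxo6 at 24 h turned to -0.17, and that of Igf1 to 0.08, under equal weights without and with the low libraries, respectively. Counts of the pathway list (12) ran from 8 to 15 and those of FoxO targets (9) from 6 to 12, and the split of the pathway list of 9 higher to 3 lower became 6 to 6 under equal weights without low libraries. At 16 h, 0 members were called under all 11 alternatives and without any of 18 mice. Of the named list genes, Igfbp3, Pik3r2, Inpp5d, Ptpn1, Socs1 and Tnfsf10 lost their call under at least 1 of 12 alternatives. The cause of these shifts was not tested. With the round of cages as a term at 16 h, 0 members were called. No paired analysis was possible because replicate numbers name single mice and do not pair them across diets.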
